A study of Mus musculus with 6 samples.

Results

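The arrays carried 72 genes named in the platform annotation as mitochondrial ribosomal proteins, by a symbol of Mrpl or Mrps followed by a number, and for all 72 a probe rose above background on 3 or more of the 6 arrays. They made up 72 of the 14731 genes tested in the series. Mitochondria carry their own ribosome, which translates the messenger RNAs of the mitochondrial genome into core subunits of the respiratory chain. Its ribosomal RNAs are made in the organelle, while every protein subunit is encoded in the nucleus, translated in the cytosol and imported. Some subunits belong to families shared with the bacterial ribosome and others occur only in mitochondria, and skeletal muscle, an oxidative tissue, depends on the respiratory chain that this ribosome helps to build.

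Muscle RNA was compared between 3 mice labelled Rpt3 null and 3 mice labelled control, all female and 6 weeks of age, with 1 array per mouse. Rpt3, the product of Psmc4, is an ATPase subunit of the proteasome, the complex that degrades ubiquitylated proteins. The labels give both groups the strain mlc1f-Cre/ Rpt3-floxed, and the study's text gives the control genotype as Mlc1f-Cre with wild-type Rpt3, so that both groups carried Cre and are called Rpt3-/- and Rpt3+/+ here. The Mlc1f promoter drives Cre in fast muscle fibers. The study's text proposes that slow fibers, non-muscle cells and gene copies missed by Cre might account for the remaining Rpt3 protein. Its antibody could not locate Rpt3 in sections, and the soleus, a muscle rich in slow fibers, had less of the protein too. Which cells kept Rpt3 is thus not known. The labels name the tibialis anterior and the study's text the gastrocnemius.

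Between 57.0% and 74.5% of the probes on an array were above background, the lowest share being that of Rpt3+/+ replicate 2. Correlations of log2 intensity across genes were 0.943 to 0.983 between arrays of a group and 0.901 to 0.946 between arrays of different groups. The log2 intensity of Psmc4 was 10.01, 9.78 and 9.85 in Rpt3-/- mice and 11.16, 10.91 and 11.06 in Rpt3+/+ mice, a log2 fold change of -1.17 (limma, adjusted p = 0.00031), although where its probe lies relative to the floxed part is not known. The 10 defining genes of skeletal muscle were each detected above background on 5 or 6 arrays. In whole muscle, fewer cells of a type and less RNA per cell cannot be told apart. Intensities of different probes are not comparable as levels, so that only differences between the groups are set side by side.

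Of the 72 mitochondrial ribosomal protein genes, 12 were called higher and 1 lower in Rpt3-/- mice. A call was an adjusted p under 0.05 from limma, a linear model fitted over all 14731 genes. The 12 made up 16.7% of the family, where 12.7% of all tested genes were higher, and the single lower gene made up 1.39%, where 6.56% of all tested genes were lower. The median log2 fold change of the family was 0.21 against -0.01 for all tested genes. It was -0.40 against -0.72 with each array centred on Actb, the transcript of beta-actin. In that setting 0 genes of the family were higher and 27 lower, where 2.23% of all tested genes were higher and 70.1% lower. For Actb, the log2 fold change was 0.45 (limma, adjusted p = 0.0294). With each array centred on its median intensity 30 genes of the family were higher and 0 lower, where 17.4% of all genes were higher and 4.07% lower. The family was a spread of small differences, the highest of 0.76 and the lowest of -0.46 on the log2 scale, and 52 of the 72 genes (72.2%) had a log2 fold change above 0, where 48.4% of all tested genes did.

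**Figure D1:**
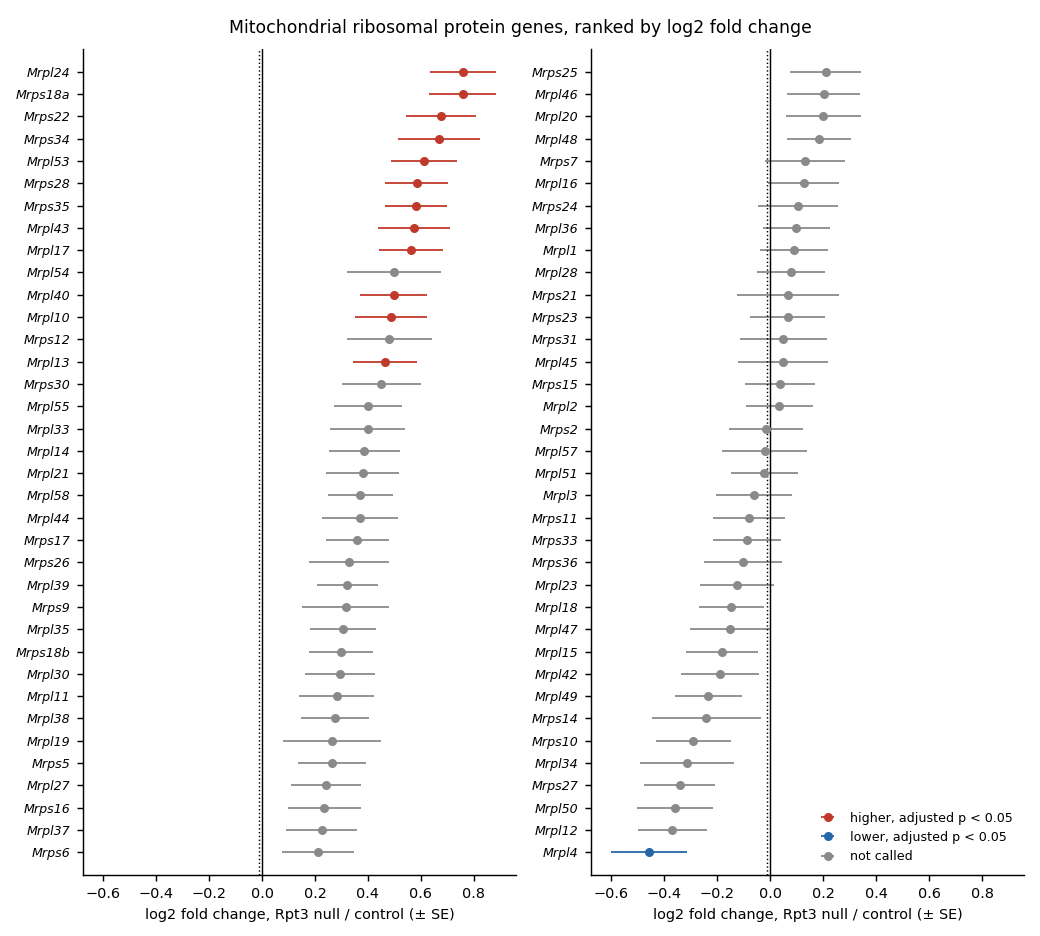
Log2 fold change of each of the 72 mitochondrial ribosomal protein genes between 3 Rpt3-/- (Rpt3 null) and 3 Rpt3+/+ (control) mice, ranked, with bars for the standard error from limma and a dotted line at the median of all tested genes, -0.01. Of these, 12 genes in red passed an adjusted p of 0.05 above 0 and 1 in blue below it. With arrays centred on Actb the median of the family turned from 0.21 to -0.40, and that of all tested genes from -0.01 to -0.72.

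The mean log2 intensity over the 72 genes was 9.52, 9.53 and 9.56 in Rpt3-/- mice and 9.31, 9.42 and 9.32 in Rpt3+/+ mice. All 3 Rpt3-/- arrays thus lay above all 3 Rpt3+/+ arrays, and Rpt3+/+ replicate 2 lay nearest to them. Taken gene by gene, 31 of the 72 (43.1%) had all Rpt3-/- arrays above all Rpt3+/+ arrays, where 21.2% of all genes without a missing spot did, and 6 (8.33%) had them below, where 15.6% did. The counts depended on single arrays. Without Rpt3+/+ replicate 3 only Mrpl24, Mrps18a and Mrps22 were called, 3 genes of the 72. That was a smaller share than the 7.34% of all tested genes that were higher in the same fit. Without Rpt3-/- replicate 3 the count of higher genes was 8 of the 72, where 7.84% of all tested genes were higher.

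The sequences ahead of the start sites of 4 called genes are shown for the letters of factors known to act on nuclear genes of mitochondrial proteins, with that of Mrpl24, the member with the largest rise, beside them. RefSeq (GRCm38.p6) gave a window of 300 bases, 250 before and 50 after the start, for 63 of the 72 members and 8 of the 12 that were higher. The windows were searched on both strands for GCATGCGC, the core of nuclear respiratory factor 1 sites, for CCGGAAGT, the site of ETS factors such as GABP, and for AAGATGGCG, the YY1 site, none of which lies within another. Below are the 150 bases ahead of the start of each gene, with matches in capitals, at chr7:105811088-105811237 on the minus strand for Mrpl17, chr11:97041432-97041581 on the plus strand for Mrpl10, chr9:98601680-98601829 on the minus strand for Mrps22, chr19:45006443-45006592 on the minus strand for Mrpl43 and chr3:87919394-87919543 on the plus strand for Mrpl24.
Mrpl17: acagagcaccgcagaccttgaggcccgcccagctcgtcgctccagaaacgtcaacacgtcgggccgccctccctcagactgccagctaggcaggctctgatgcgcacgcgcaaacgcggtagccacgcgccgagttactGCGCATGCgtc
Mrpl10: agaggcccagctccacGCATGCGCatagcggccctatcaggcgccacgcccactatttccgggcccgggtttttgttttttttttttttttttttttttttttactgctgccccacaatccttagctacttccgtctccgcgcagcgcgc
Mrps22: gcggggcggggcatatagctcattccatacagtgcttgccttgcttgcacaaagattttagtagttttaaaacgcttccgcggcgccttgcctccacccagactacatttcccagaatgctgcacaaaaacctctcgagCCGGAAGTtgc
Mrpl43: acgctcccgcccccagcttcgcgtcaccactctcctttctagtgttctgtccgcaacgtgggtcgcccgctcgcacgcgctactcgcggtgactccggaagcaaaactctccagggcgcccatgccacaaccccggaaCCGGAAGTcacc
Mrpl24: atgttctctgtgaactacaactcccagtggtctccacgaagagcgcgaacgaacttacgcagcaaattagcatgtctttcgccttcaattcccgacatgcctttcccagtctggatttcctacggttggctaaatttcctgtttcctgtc

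Mrpl17 and Mrpl10 held the nuclear respiratory factor 1 letters, the former on the strand opposite to the gene and close to its start, and Mrps22 and Mrpl43 held the ETS letters close to theirs. Over the whole family 21 of 63 genes with a window (33.3%) held at least 1 of the 3 motifs. Of the 11683 tested genes with a window 13.7% did, and of all 27025 genes with a window 8.47% did. A gene with several windows, such as Mrpl48, was counted once if any of them held a match. The nuclear respiratory factor 1 letters were held by 5 genes (7.94%, against 4.96% of tested genes), the ETS letters by 10 (15.9%, against 6.97%) and the YY1 letters by 8 (12.7%, against 2.77%). Among the 8 genes with a window that were higher 5 held a motif, and among the 55 remaining genes with a window 16 did. Mrps18a was the fifth of the former, through YY1 letters outside the 150 bases nearest its start. A match describes letters in a window and does not show that a factor binds there. Of the factors themselves, the log2 fold change was 0.01 for Nrf1 (adjusted p = 0.956 from limma), 0.16 for Gabpa (adjusted p = 0.595) and 0.13 for Yy1 (adjusted p = 0.609), and none of the 3 was called.

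In the large subunit, which holds the peptidyl transferase center, 27 members were of families shared with bacteria. Of these 4 were higher (14.8%, where 12.7% of all tested genes were) and 1 was lower, with a median log2 fold change of 0.20. Mrpl24, whose bacterial counterpart takes part in the first steps of large subunit assembly, had a log2 intensity of 10.76, 10.82 and 10.81 in Rpt3-/- mice and 10.15, 10.05 and 9.91 in Rpt3+/+ mice. The Rpt3-/- arrays were close to one another and all lay above the Rpt3+/+ arrays. Mrpl24 was thus 1.69-fold higher, with a log2 fold change of 0.76 ± 0.12 (SE, n = 3 and 3, adjusted p = 0.00231 from limma). Mrpl17, which lies near the exit of the peptide tunnel, had 11.41, 11.29 and 11.38 against 10.76, 10.89 and 10.75. Its groups did not overlap either, and the log2 fold change was 0.56 ± 0.12 (SE, adjusted p = 0.00925 from limma), but its dimmer probes lay at -0.40 and -0.19 and the mean of its probes at -0.01, which was not called. Mrpl13 had 10.02, 9.88 and 9.86 against 9.49, 9.50 and 9.38, again without overlap, and a log2 fold change of 0.46 ± 0.12 (SE, adjusted p = 0.0234 from limma).

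In the stalk of the large subunit, which recruits translation factors, 1 of 3 members was called. Mrpl10, the stalk base protein on which the Mrpl12 copies are mounted, had a log2 intensity of 9.12, 9.50 and 9.21 in Rpt3-/- mice and 8.77, 8.77 and 8.83 in Rpt3+/+ mice. The groups did not overlap, Rpt3-/- replicate 2 was the highest, and the log2 fold change of 0.49 ± 0.14 (SE, adjusted p = 0.0318 from limma) did not pass without that array, without Rpt3-/- replicate 3 or without Rpt3+/+ replicate 3 (adjusted p up to 0.126 over the arrays left out). Mrpl12, the stalk protein itself, which is also known to bind the mitochondrial RNA polymerase, had 10.23, 10.29 and 10.32 against 10.80, 10.66 and 10.48. Its Rpt3-/- arrays all lay below its Rpt3+/+ arrays, but the log2 fold change of -0.37 ± 0.13 (SE) was not called (adjusted p = 0.0759 from limma). Mrpl11, which binds the ribosomal RNA at the foot of the stalk, overlapped between the groups, with a log2 fold change of 0.28 ± 0.14 (SE, adjusted p = 0.205 from limma). The difference between Mrpl10 and Mrpl12 was not tested.

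Mrpl4, whose bacterial counterpart lines the narrow part of the peptide tunnel, was the only member called lower. Its log2 intensity was 9.53, 9.68 and 9.49 in Rpt3-/- mice and 10.19, 9.79 and 10.10 in Rpt3+/+ mice. Rpt3+/+ replicate 2 lay close to the highest Rpt3-/- array, and the groups did not overlap. The log2 fold change of -0.46 ± 0.14 (SE) was just inside the threshold (limma, adjusted p = 0.0490). The call was lost with 5 of the 6 arrays left out in turn, nor in 7 of the other 13 settings, while its sign was the same in all of them. It was called without Rpt3+/+ replicate 2, at an adjusted p of 0.0115 from limma.

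Of the 19 large subunit members classed as specific to mitochondria 4 were higher (21.1%, where 12.7% of all tested genes were) and 0 lower. The counts were 9 and 1 at an unadjusted p under 0.05 from limma, where 19.2% and 12.9% of all tested genes were called. The median log2 fold change was 0.28. Mrps18a bears a small subunit symbol but is a large subunit protein, one of 3 mammalian relatives of bacterial S18. It and Mrps18b were placed in the mitochondria-specific classes although their family is shared with bacteria. Its log2 intensity was 10.20, 10.40 and 10.45 in Rpt3-/- mice and 9.61, 9.64 and 9.52 in Rpt3+/+ mice, and its lowest Rpt3-/- array lay well above its highest Rpt3+/+ array. The log2 fold change was 0.76 ± 0.13 (SE, adjusted p = 0.00268 from limma). Mrpl53 had 10.68, 10.47 and 10.60 against 10.01, 10.02 and 9.89, Mrpl43 had 11.06, 10.89 and 10.85 against 10.55, 10.30 and 10.23, and Mrpl40 had 9.38, 9.26 and 9.42 against 8.75, 8.97 and 8.85. None of the 3 overlapped between the groups, and Rpt3+/+ replicate 1 of Mrpl43 came nearest to the other group. Their log2 fold changes were 0.61 ± 0.13 for Mrpl53 (SE, adjusted p = 0.00739 from limma), 0.57 ± 0.14 for Mrpl43 (adjusted p = 0.0151) and 0.50 ± 0.13 for Mrpl40 (adjusted p = 0.0205).

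The small subunit, which binds the messenger RNA, had 25 members with a class. Of these 4 were higher (16%, where 12.7% of all tested genes were) and 0 lower. The counts were 7 and 1 at an unadjusted p under 0.05 from limma, where 19.2% and 12.9% of all tested genes were called. The median log2 fold change was 0.21. Among the 15 of families shared with bacteria 1 was higher (6.67%) and the median was 0.13. Among the 10 classed as specific to mitochondria 3 were higher (30%) and the median was 0.25. Mrps22, in which human mutations cause an inherited defect of oxidative phosphorylation, had a log2 intensity of 10.09, 10.31 and 10.26 in Rpt3-/- mice and 9.41, 9.65 and 9.58 in Rpt3+/+ mice. All Rpt3-/- arrays lay above, and the log2 fold change was 0.68 ± 0.13 (SE, adjusted p = 0.00561 from limma). Mrps34, likewise a gene of inherited mitochondrial disease, had 7.36, 7.40 and 7.75 against 6.73, 7.05 and 6.72. Rpt3-/- replicate 3 and Rpt3+/+ replicate 2 stood above the rest of their groups, the groups did not overlap, and the log2 fold change was 0.67 ± 0.16 (SE, adjusted p = 0.0137 from limma). Without Rpt3-/- replicate 3 Mrps34 was not called.

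Mrps28 had a log2 intensity of 10.50, 10.54 and 10.41 in Rpt3-/- mice and 9.94, 9.91 and 9.85 in Rpt3+/+ mice, and Mrps35 had 8.96, 9.005 and 8.97 against 8.44, 8.42 and 8.33. In both genes the arrays of a group lay close together, and the groups stood apart. Each had a log2 fold change of 0.58 ± 0.12 (SE), with an adjusted p of 0.00728 for Mrps28 and 0.00698 for Mrps35 from limma. Mrps36, which is now regarded as a component of the 2-oxoglutarate dehydrogenase complex and was placed in neither subunit, had a log2 fold change of -0.10 ± 0.15 (SE, adjusted p = 0.686 from limma).

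**Figure D2:**
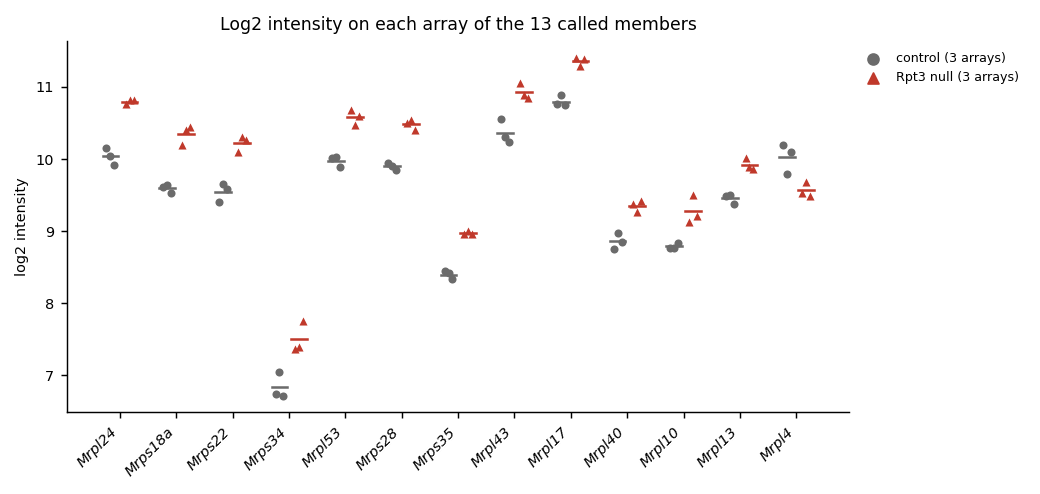
Log2 intensity of the 13 called members on each array, with circles for the 3 Rpt3+/+ (control) arrays, triangles for the 3 Rpt3-/- (Rpt3 null) arrays and lines at the group means. The groups overlap in none of the 13 genes, of which 12 lie higher in Rpt3-/- mice and Mrpl4 lies lower, and with arrays centred on Actb none of the 12 was called higher.

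The other 59 members were not called, and their log2 fold changes ran from -0.37 to 0.50. In 19 of them all Rpt3-/- arrays lay above all Rpt3+/+ arrays, and in 5 they lay below. Over all genes without a missing spot, called or not, 21.2% lay above and 15.6% below. The uncalled genes of the series were not counted apart. At an unadjusted p under 0.05 from limma, 26 members (36.1%) were higher and 4 (5.56%) lower, where 19.2% and 12.9% of all tested genes were. The largest rise among the uncalled was that of Mrpl54, at 0.50 ± 0.18 (SE, adjusted p = 0.0790 from limma), whose groups overlapped. Mrps12, the counterpart of the bacterial protein that governs decoding accuracy, stood at 0.48 ± 0.16 (SE, adjusted p = 0.0620). On the low side, after Mrpl12, Mrpl50 had a log2 fold change of -0.36 ± 0.14 (SE, adjusted p = 0.115 from limma), Mrps27, a pentatricopeptide repeat protein, of -0.34 ± 0.13 (adjusted p = 0.107), Mrpl34 of -0.31 ± 0.18 (adjusted p = 0.257) and Mrps10 of -0.29 ± 0.14 (adjusted p = 0.192). The groups of Mrpl50, Mrps27 and Mrps10 did not overlap and those of Mrpl34 did. Without Rpt3+/+ replicate 1 both Mrpl50 and Mrps27 were called lower and Mrpl4 was not.

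Intensity bounded what could be seen for few members. All but 1 of the 72 were above background on all 6 arrays, and none had a missing spot. Mrpl36, the exception and the dimmest of the 72 probes taken for the members, was above background on 3 Rpt3-/- arrays and 1 Rpt3+/+ array, with a log2 intensity of 6.83, 6.59 and 6.57 against 6.56, 6.58 and 6.55. Its groups overlapped, and the log2 fold change was 0.10 ± 0.13 (SE, adjusted p = 0.649 from limma). The brightest of those 72 probes was that of Mrpl30, at a mean of 11.63 in Rpt3-/- and 11.34 in Rpt3+/+ mice and a log2 fold change of 0.29 ± 0.13 (SE, adjusted p = 0.155 from limma). Of 85 probes of the family 81 passed the filter, and the 4 that did not were further probes of Mrpl3, Mrpl47, Mrpl58 and Mrps14.

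More than 1 probe above background was available for 7 members, and in 4 of them the probes pointed in opposite directions. The brightest probe of Mrpl17, whose values are given above, was called higher, while its remaining probes had log2 fold changes of -0.40 ± 0.15 (SE, adjusted p = 0.0875 over probes, from limma) and -0.19 ± 0.16 (adjusted p = 0.480). Those were above background on 3 and 4 of the 6 arrays, and the mean of the probes put Mrpl17 at -0.01. Mrpl35 had 0.31 ± 0.13 from its brightest probe and -0.61 ± 0.20 from its dimmer probe (adjusted p = 0.0627 from limma), and Mrps30 had 0.45 ± 0.15 and -0.16 ± 0.13. For Mrps7, which sits in the head of the small subunit, the brighter probe showed 0.13 ± 0.15 and the dimmer probe 0.66 ± 0.12 (adjusted p = 0.00487 from limma). The dimmer probe of Mrps7 read 8.69, 8.63 and 8.64 in Rpt3-/- mice and 7.87, 8.03 and 8.08 in Rpt3+/+ mice, without overlap, while the arrays of the brighter probe were interleaved. Mrpl21 had 0.38 ± 0.14, 0.49 ± 0.15 and -0.14 ± 0.13, of which the second was called (adjusted p = 0.0498 from limma). Mrps12 (0.48 and 0.41) and Mrps33 (-0.09 and -0.02) had probes that lay together. Which transcripts each probe reports was not given in the sources used here.

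**Figure D3:**
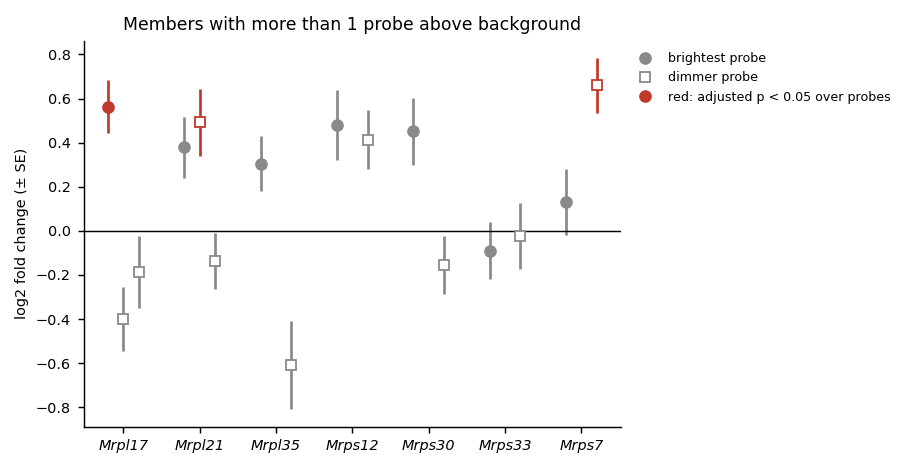
Log2 fold change with its standard error from limma for every probe above background of the 7 members with more than 1 such probe, with filled circles for the brightest probe, open squares for dimmer probes and red where the adjusted p over probes was under 0.05. Probes of Mrpl17, Mrpl21, Mrpl35 and Mrps30 lie on both sides of 0, and of Mrps7 only the dimmer probe, at 0.66, was called.

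Subunits outside the platform's naming were measured too. Mrps18c, the relative of bacterial S18 in the small subunit, had a probe that was named only through its RefSeq accession and so was not counted in the family. Its log2 intensity was 10.90, 10.77 and 10.57 in Rpt3-/- mice and 9.62, 9.67 and 9.48 in Rpt3+/+ mice, with a wide gap between the groups. The log2 fold change was 1.15 ± 0.14 (SE, adjusted p = 0.000396 from limma), beyond any of the 72, and it stayed called in all settings and without any single array, at 0.63 with arrays centred on Actb. The S18 relatives thus stood at 1.15 for Mrps18c, 0.76 for Mrps18a and 0.30 for Mrps18b (adjusted p = 0.122). Among 5 subunits that bear other symbols, Gadd45gip1 stood at a log2 fold change of 0.66 (limma, adjusted p = 0.00803) and Aurkaip1 at 0.59 (adjusted p = 0.0149), while Chchd1 (0.07), Dap3 (-0.06), which binds GTP in the small subunit, and Ptcd3 (-0.10) were not called. Lactb, also listed as Mrpl56, had 9.13, 9.22 and 9.29 in Rpt3-/- mice and 9.46, 9.61 and 9.69 in Rpt3+/+ mice. Its Rpt3-/- arrays all lay below, but the log2 fold change of -0.37 ± 0.13 (SE) was not called (adjusted p = 0.0680 from limma). Mrpl9, Mrpl22, Mrpl32, Mrpl41 and Mrpl52 were not analysed here.

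The ribosomal proteins of the cytosol, which translate the messages of the mitochondrial subunits, are set beside them here. Of 60 measured 41 were higher and 0 lower (55 and 0 at an unadjusted p under 0.05 from limma), and their median log2 fold change was 0.65 against 0.21 for the mitochondrial ribosome. The nuclear-encoded subunits of the respiratory chain are assembled with the products of the mitochondrial ribosome. Of these 72 subunits 2 were higher (2.78%) and 10 lower (13.9%), with a median of -0.10. The lower ones included Ndufs1 of complex I at -1.03 (adjusted p = 0.00325 from limma), Atp5b of the ATP synthase at -0.95 (adjusted p = 0.00421) and Cox7a1, the muscle form of a cytochrome oxidase subunit, at -0.79 (adjusted p = 0.00334). Those higher were Cox8a at 1.14 (adjusted p = 0.000515) and Cox6a1 at 0.64 (adjusted p = 0.0110), both of forms also made outside muscle. The differences between the lists were not tested.

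**Figure D4:**
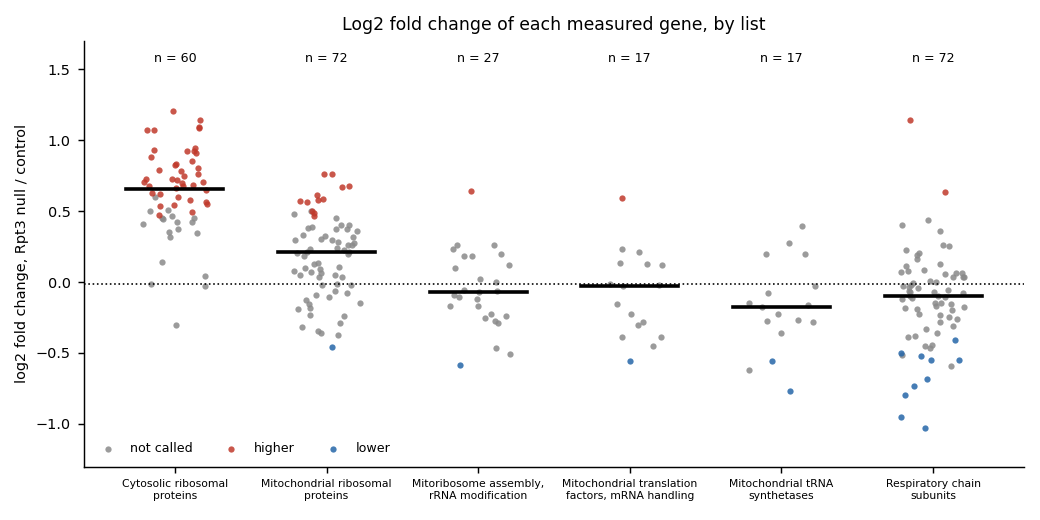
Log2 fold change of each measured gene in 6 lists between 3 Rpt3-/- and 3 Rpt3+/+ mice, with red for genes called higher, blue for genes called lower, black bars at the list medians and a dotted line at the median of all tested genes. The median of the mitochondrial ribosomal proteins, 0.21, lies between those of the cytosolic ribosomal proteins, 0.65, and of the respiratory chain subunits, -0.10. With arrays centred on Actb, which is not drawn, the median of the mitochondrial ribosomal proteins was -0.40 and that of all tested genes -0.72.

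The genes that make, modify and serve the mitochondrial ribosome were taken in 4 lists. Over these lists with 75 measured genes 4 were higher (5.33%, where 12.7% of all tested genes were) and 5 lower (6.67%, where 6.56% were). The counts were 6 and 10 at an unadjusted p under 0.05 from limma, where 19.2% and 12.9% of all tested genes were called. The median log2 fold change was -0.09. Among 27 genes of ribosome assembly and ribosomal RNA modification, Pus1, a pseudouridine synthase, was higher at 0.64 (adjusted p = 0.0202 from limma) and Spg7, a subunit of the protease that matures Mrpl32, was lower at -0.59 (adjusted p = 0.0139). Among 17 translation factors and genes of messenger RNA handling, Ptcd1 was higher at 0.59 (adjusted p = 0.0140) and Rmnd1 lower at -0.56 (adjusted p = 0.0317). Of 17 mitochondrial aminoacyl-tRNA synthetases none was called higher (1 at an unadjusted p under 0.05 from limma), while Ears2, which charges glutamate, had -0.76 (adjusted p = 0.00256) and Cars2, which charges cysteine, -0.56 (adjusted p = 0.0233). Among 14 genes of mitochondrial DNA transcription and maintenance, Ssbp1, which binds single-stranded mitochondrial DNA, was higher at 0.96 (adjusted p = 0.00461), as was Hsd17b10, a subunit of mitochondrial RNase P, at 0.48 (adjusted p = 0.0267), and Mgme1, a mitochondrial DNA exonuclease, was lower at -0.89 (adjusted p = 0.0161). These counts varied with single arrays. They were 1 higher and 1 lower without Rpt3+/+ replicate 3, 1 and 2 without Rpt3-/- replicate 3, 2 and 2 without Rpt3-/- replicate 1, 2 and 3 without Rpt3-/- replicate 2, and 4 and 15 without Rpt3+/+ replicate 1.

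Of 15 regulators of mitochondrial biogenesis 0 were called higher and 2 lower (0 and 3 at an unadjusted p under 0.05 from limma). The latter were Nrip1, a corepressor, at -0.68 (adjusted p = 0.00823 from limma) and Ppara, a nuclear receptor of fatty acid oxidation, at -0.66 (adjusted p = 0.0127). Ppargc1a, the coactivator PGC-1alpha, varied widely within both groups and had a log2 fold change of 0.02 ± 0.27 (SE, adjusted p = 0.966 from limma). Of 21 genes of import and mitochondrial content 5 were higher and 5 lower (23.8% each, where 12.7% and 6.56% of all tested genes were). Higher were Clpp, a matrix protease, at 0.95 (adjusted p = 0.00108) and Tomm22, a receptor of the outer membrane import pore, at 0.69 (adjusted p = 0.00502). Hspe1, the cochaperonin, did not rise well above background in any Rpt3+/+ mouse. It was at least 1.45-fold higher (limma, adjusted p = 0.00445), where the bound sets the Rpt3-/- mean against the dimmest detected signal of each Rpt3+/+ array. Lower were Cs, the citrate synthase often used as a measure of mitochondrial content, at -1.15 (adjusted p = 0.00354), Hspd1, the matrix chaperonin, at -0.87 (adjusted p = 0.0170) and Vdac1, the outer membrane channel, at -0.61 (adjusted p = 0.0104).

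Markers of other cells in the muscle differed between the groups. The counts below stand beside 12.7% of all tested genes called higher and 6.56% called lower. Of 9 measured macrophage and leukocyte markers of 15 listed 8 were higher and 0 lower, with a median log2 fold change of 1.41, and their mean log2 intensity ranged from 8.90 to 9.58 in Rpt3-/- mice and from 7.73 to 7.88 in Rpt3+/+ mice. Of 8 fibroblast markers 3 were higher, with mean log2 intensities of 10.66 to 10.82 in Rpt3-/- mice and 9.94 to 10.52 in Rpt3+/+ mice. Of 6 slow fiber markers 4 were higher, and the mean log2 intensity over all 6 was 10.52 to 10.63 in Rpt3-/- mice and 9.54 to 10.01 in Rpt3+/+ mice. Within each group the fibroblast and slow fiber means ranked the 3 arrays in the same order as the mean of the mitochondrial ribosomal proteins. The macrophage means did not. That order was also the order of the mean over all tested genes, which was 8.247, 8.251 and 8.262 in Rpt3-/- mice. In Rpt3+/+ mice it was 8.196, 8.226 and 8.223, so that the order is not particular to these lists. Myog among 3 markers of satellite cells and myoblasts was higher, at 1.12. Of 2 adipocyte markers Adipoq was higher, at 1.21. The other, Cidec, had a log2 fold change of -0.25 and was not called (limma, adjusted p = 0.258), with all Rpt3-/- arrays below all Rpt3+/+ arrays. None of 6 endothelial or 4 Schwann cell markers was called by limma (1 endothelial marker was lower at an unadjusted p under 0.05). Of the 10 defining genes of skeletal muscle Myl1 was lower, at -0.85, and Myh1 higher, at 0.70. The part of these cells in the values of the mitochondrial ribosomal proteins was not tested.

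Many members share a start region with another gene. In RefSeq 23 of 63 members (36.5%) had a gene on the other strand starting within 1000 bases in the opposite direction, where 16.4% of tested genes did. Mrpl46 and Mrps11 are such a pair within the family, with log2 fold changes of 0.20 and -0.08, neither called. Of the partners of these 23 members, Hira, 4930473A02Rik, Zfp661, Eme1 and Ska3 had no value. Among the rest 4 were called, where 19.3% of all tested genes were called in either direction. Whether the partners differ from that share was not tested. Mrpl49 (-0.23, adjusted p = 0.237 from limma) is paired with Fau, the gene of a cytosolic ribosomal protein, which was higher at 1.09 (adjusted p = 0.00205). Mrpl30 (0.29) is paired with Mitd1, which was higher at 0.69 (adjusted p = 0.0149 from limma), Mrpl14 (0.39) with Tmem63b, higher at 0.52 (adjusted p = 0.0218), and Mrpl50 (-0.36) with Zfp189, lower at -0.44 (adjusted p = 0.0454). The members of those 4 pairs were not called. Of the called members, Mrpl43 (0.57) is paired with Twnk, the mitochondrial DNA helicase, at -0.08 (adjusted p = 0.788 from limma), and Mrpl40 with Hira, which has no value here. The differences within pairs were not tested.

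The calls of the family differed in how they held under other processing. Mrpl24, Mrps18a and Mrps22 were called without any single array, with log2 fold changes of 0.70 to 0.82, 0.71 to 0.83 and 0.61 to 0.74, and in 12 of 13 other settings, the exception being arrays centred on Actb, where they had 0.26, 0.22 and 0.12. Mrps28, Mrps35, Mrpl53 and Mrpl17 were called without 5 of the 6 arrays, the exception being Rpt3+/+ replicate 3. Mrps34 and Mrpl43 were called without 4 of them, Mrpl40 and Mrpl10 without 3 and Mrpl13 without 2.

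**Figure D5:**
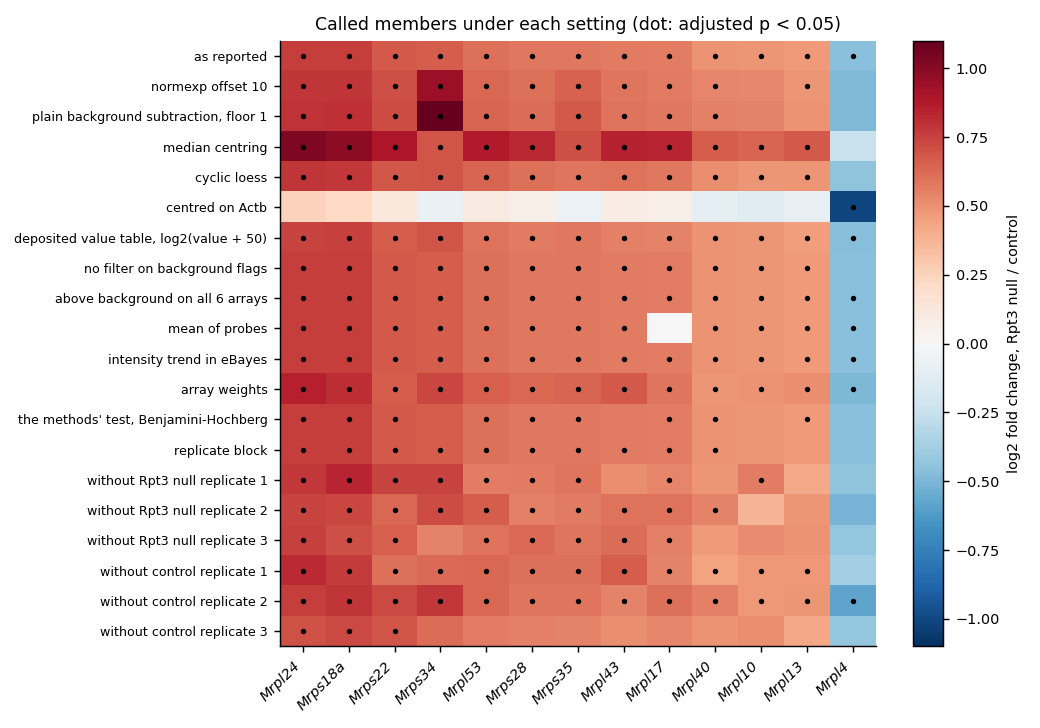
Log2 fold change between Rpt3-/- and Rpt3+/+ mice, in color, of the 13 called members (columns) under each setting (rows), with a dot where the adjusted p was under 0.05. Mrpl24, Mrps18a and Mrps22 carry a dot in every row but that of arrays centred on Actb, where Mrpl4 alone carries one and 5 of the other columns lie below 0.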

How the data were processed

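Total RNA of 6 muscles was hybridized, with Cy5 as the single dye, to CodeLink mouse whole-genome bioarrays. The scanner reports deposited by the authors hold a spot intensity, a local background intensity and a quality flag per probe, written by CodeLink Expression Analysis 5.0.0.31312 (per the submitters' processing notes), with arrays not scaled to each other. A second deposited file is the authors' value table of background-subtracted, quantile-normalized intensities on a linear scale (column median 89.0), used as an alternative. No genome build of the array probes was given in the sources used here, and promoter sequences and neighboring genes are those of RefSeq on GRCm38.p6.

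Of 34967 transcript probes, 21615 had 1 symbol in the platform annotation, 681 had several and stayed unnamed, 535 were named through RefSeq accessions and 12136 had no name. The 1260 control spots were dropped once the background had been corrected by normexp (offset 50). After quantile normalization and log2 transformation, limma 3.58.1 (R 4.3.3; lmFit, eBayes) gave two-sided p-values, adjusted by Benjamini-Hochberg over 14731 genes. Tested genes had a probe not flagged near background on 3 or more of 6 arrays, and their brightest probe was used. Contaminated and masked spots were set missing. Non-overlap was counted over 14680 genes without a missing spot. Python 3.11.15 with pandas 2.3.3 read the files, and matplotlib 3.10.9 drew the figures. The steps were tested on simulated data, where they called 26 of 50 genes with a true log2 fold change of 1 and 22 of 50 at -1. At 0.58 and at -0.58 they called 6 of 50 each, so that most changes of that size were missed. Of 14531 unchanged genes 2 were called. The simulation changed few genes, so that recovery in the real data may differ.

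Members and gene lists were chosen with earlier results of these data known. Every called member was named in full, with the 6 largest rises and falls, the brightest and dimmest members and members whose probes disagree. In other lists each called gene was named, or the 3 largest in each direction where more than 6 were called. Exceptions were the cytosolic ribosomal proteins and the macrophage, fibroblast and slow fiber markers, which were given as counts without names. Lactb, Fau, Mitd1, Tmem63b, Zfp189, Twnk, Hira and the pair of Mrpl46 and Mrps11 were named after their values were seen. The precision is limited by 3 arrays per group, each from its own mouse per the labels. A block for slide could not be fitted, since each slide held 1 array. The methods' test is the unpaired parametric test named in the study.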

Additional observations from a re-analysis of the deposited data

How the results depend on the processing

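Of 1459 values of single genes under the alternatives, 1306 kept their side of the threshold, 102 newly passed in either direction and 45 no longer passed. The remaining 6 were values of called genes that changed sign. Changes of sign among uncalled genes were not counted apart. Centring on Actb gave -0.13 for Mrpl10, -0.093 for Mrpl13, -0.11 for Mrpl40, -0.076 for Mrps34 and -0.064 for Mrps35, and the mean of probes gave -0.0078 for Mrpl17, since its dimmer probes lie below 0. Of the 72 members, 30 were higher with median centring, 0 with centring on Actb, 31 with array weights and 26 by the methods' test unadjusted. The count of lower members was 0 with a normexp offset of 10, plain subtraction, median centring, cyclic loess, no filter or the methods' test after Benjamini-Hochberg adjustment, 4 with array weights or the methods' test unadjusted and 27 with centring on Actb. The median over members was 0.37 with median centring and -0.40 with centring on Actb. Of all tested genes, 329 were higher and 10326 lower with centring on Actb, 3008 and 2361 with array weights, and 940 and 427 by the methods' test adjusted; 600 were lower with median centring and 1636 by the methods' test unadjusted. Of the 75 genes of the mitochondrial translation pathway, 0 and 54 were called with centring on Actb, 7 and 18 with array weights, and 0 and 2 by the methods' test adjusted (9 lower unadjusted). Leaving out single arrays gave 3 to 16 members higher and 0 to 2 lower, a median of 0.18 to 0.25, 1081 to 2332 genes higher and 387 to 1418 lower in all, and 1 to 6 and 1 to 15 of the pathway. All genes were fewest without Rpt3+/+ replicate 3. The cause of these changes was not tested.

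With the replicate number as a block, 10 members were higher and 0 lower, Mrpl10, Mrpl13 and Mrpl4 no longer passing, while the median stayed at 0.21. Same-numbered arrays deviated from their group means with correlations of 0.126, -0.438 and 0.0976. Those of differently numbered arrays ran from -0.485 to 0.471. With 3 arrays per group the deviations constrain one another, so that these values cannot decide whether the numbers pair the mice. Signal over background limits Mrpl36 and the dimmer probes of Mrpl17.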
